A study of Mus musculus with 8 samples.

Results

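The genes described here encode 10 secreted proteins of mucosal defence: Pigr, Lcn2, Ltf, Lyz1, Reg3b, Reg3g, Bpifb1, Scgb1a1, Slpi and Wfdc2. They were taken by symbol from the 23361 genes of the deposited expression table, and all 10 were found. They were selected on their FPKM in these same 8 samples, high or low in the cancers against the controls, so the differences between cancers and controls below are a description of these genes and carry no test. RNA was sequenced from 5 gastric squamous-columnar junction (SCJ) cancers and from the SCJ of 3 control stomachs of mice. The cancers carried Trp53-/-Rb1-/- cells and arose in Lgr5eGFP-Ires-CreERT2 Trp53loxP/loxP Rb1loxP/loxP Ai9 mice after tamoxifen. In these mice Cre is made from the Lgr5 locus, so that both genes are deleted first in Lgr5+ cells, and the Ai9 reporter marks the recombined cells with tdTomato. The control tissue is labelled wild type and came from age-paired mice. Each sample was a piece of whole tissue, with stroma and blood cells beside the epithelium. The labels do not say that each sample came from a separate mouse, so the p-values below measure the spread between these samples.

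The SCJ is the line where the squamous lining of the mouse forestomach meets the glandular stomach. Epithelia of this kind release proteins that limit bacteria without destroying the tissue. Some of these proteins carry antibodies into the lumen, some withhold iron from bacteria or damage the bacterial wall, some bind lipids, and some inhibit the proteases that leukocytes release. Several of them are known to be made on demand after signals from interleukin 17, interleukin 22, interleukin 1 and Toll-like receptors, which act through STAT3, NF-kB and C/EBP factors.

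The values are FPKM (fragments per kilobase of transcript, scaled to the mapped fragments of a library), rounded to whole numbers in the deposited table, so levels can be set side by side between genes but values near 1 have few steps. Read numbers are not given, the depth of each library is unknown, and a value of 0 means only that a gene is listed at 0. The sum of FPKM over all genes was between 403569 and 573858 in the cancers and between 887141 and 992550 in the controls, and the 10 most abundant genes made up 11.1% to 19.6% of it in the cancers and 39.3% to 44.3% in the controls. Of the deleted genes, Rb1 was at 4 to 6 FPKM in the cancers, against 9 to 10 in control tissue, whereas Trp53 was at 12 to 30 and 16 to 19. The limma adjusted p was 0.0059 for Rb1 (log2 fold change -0.90) and 0.87 for Trp53 (-0.08). Once libraries were rescaled to the same sum, a step that moved the middle log2 fold change over all genes from -0.04 to 0.81, Rb1 lay at -0.86 and Trp53 at 0.05 against that median. Gene-level values take in exons outside the deleted part and RNA of unrecombined cells, so they are no check of the deletion. In the controls all 8 squamous markers and 10 or 11 of the 11 gastric gland markers were at 1 FPKM or more. Markers of both linings were thus present, which by itself does not place the tissue at the SCJ. Pgc, a pepsinogen of gastric glands, was nevertheless listed at 28832, 0 and 0 in the 3 controls, so a 0 here can be a failed estimate.

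A pair of cancers stood apart from the others in their markers. Cancer 1 had 0 of 8 squamous markers and 5 of 11 gastric gland markers at 1 FPKM or more, while all 7 general epithelial markers were present and Epcam was at 314. It also had the highest summed B and plasma cell markers (237 FPKM, where the other 4 cancers had 5 to 44 and control tissue 13 to 24). Cancer 5 had a summed hepatocyte marker level of 616 FPKM, where the remaining cancers had 7 to 66 and each control had 1. All 8 hepatocyte markers, Alb among them at 266, were at 1 or more in cancer 5 alone. In whole tissue, fewer cells of a type and less RNA per cell cannot be told apart.

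The 10 genes did not move one way. By their mean on the log2(FPKM + 1) scale, 5 were higher in the cancers (Pigr, Lcn2, Lyz1, Reg3b and Reg3g) and 5 were lower (Scgb1a1, Ltf, Bpifb1, Slpi and Wfdc2). Their median log2 fold change was 0.04, and that of all 14357 genes with at least 1 FPKM in at least 3 samples was -0.04. Every cancer lay below every control for 2 of the 10 genes, Scgb1a1 and Slpi, and every cancer lay above every control for 0. Among all genes tested, 19.8% lay wholly below and 14.4% wholly above. Without cancer 1, 4 of the 10 genes lay wholly above the controls (Pigr, Lcn2, Reg3b and Reg3g) and 2 wholly below, where 15.2% and 20.4% of all genes did, and the median log2 fold change of the 10 was 1.09. Without cancer 5 that median was -0.57. When every library was rescaled to the same sum (TPM), the median of all genes moved to 0.81, so TPM fold changes are given below as differences from that median. With TPM, 50.0% of all genes tested were called higher and 3.68% lower, and the shift by itself can end the call of a gene that was lower or bring one about for a gene that was higher.

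**Figure D1:**
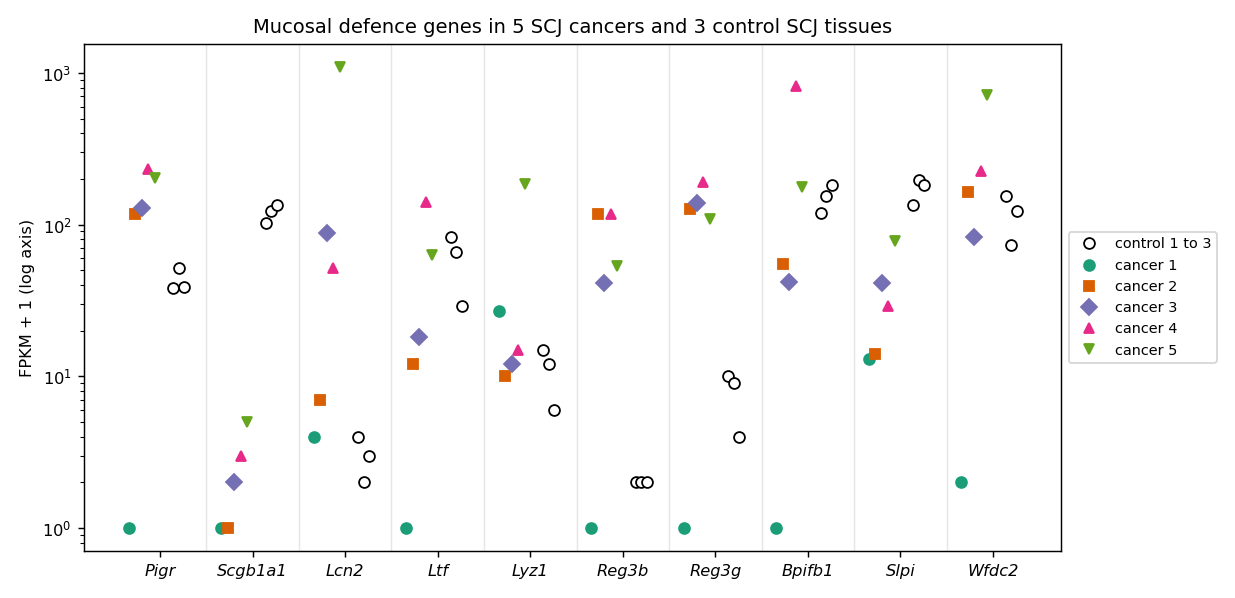
Level of each of the 10 genes in each sample, as FPKM + 1 on a log axis, with filled symbols for the 5 cancers and open circles for the 3 controls. For each gene the 3 controls spread less than the 5 cancers, and cancer 1 is at 0 FPKM (drawn at 1) for 6 of the 10 genes.

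The cancers differed among themselves far more than the controls did. The SD of log2(FPKM + 1) over the 5 cancers was between 1.01 (Scgb1a1) and 3.59 (Bpifb1), with a median of 3.03 over the 10 genes and of 0.41 over all genes tested. The low value of Scgb1a1 rests on cancers at 0 to 4 FPKM, and with a pseudocount of 0.1 it was 2.50, above the 1.12 of Slpi. The summed level of the 10 genes was 42 FPKM in cancer 1, 615 in cancer 2, 584 in cancer 3, 1814 in cancer 4 and 2666 in cancer 5, and 653, 678 and 691 in the controls. Cancer 1 thus lay far below the controls, cancers 2 and 3 slightly below them, and cancers 4 and 5 above them. As a share of all FPKM in the library, the 10 genes took 0.0104% in cancer 1, between 0.107% and 0.598% in cancers 2 to 5, and between 0.0683% and 0.0764% in control tissue. On this scale cancers 2 and 3 also lay above the controls.

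Each cancer had its own leading gene. Lyz1 made up 61.9% of the summed level in cancer 1, Wfdc2 26.5% in cancer 2, Reg3g 23.5% in cancer 3, Bpifb1 45% in cancer 4 and Lcn2 41% in cancer 5. Cancer 1 was lowest of the 5 for 8 of the 10 genes, where 19.6% of all genes tested were lowest there alone. Cancer 5 was highest for 5 (Scgb1a1, Lcn2, Lyz1, Slpi and Wfdc2), where 17.3% of all genes were, and cancer 4 for 4 (Pigr, Ltf, Reg3g and Bpifb1), where 15.1% were. The 6 genes listed at 0 in cancer 1 were Pigr, Scgb1a1, Ltf, Reg3b, Reg3g and Bpifb1, and 8.76% of all genes tested were at 0 in that library. Whether the near absence of squamous and gastric gland markers in cancer 1 has a part in these low values was not tested.

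**Figure D2:**
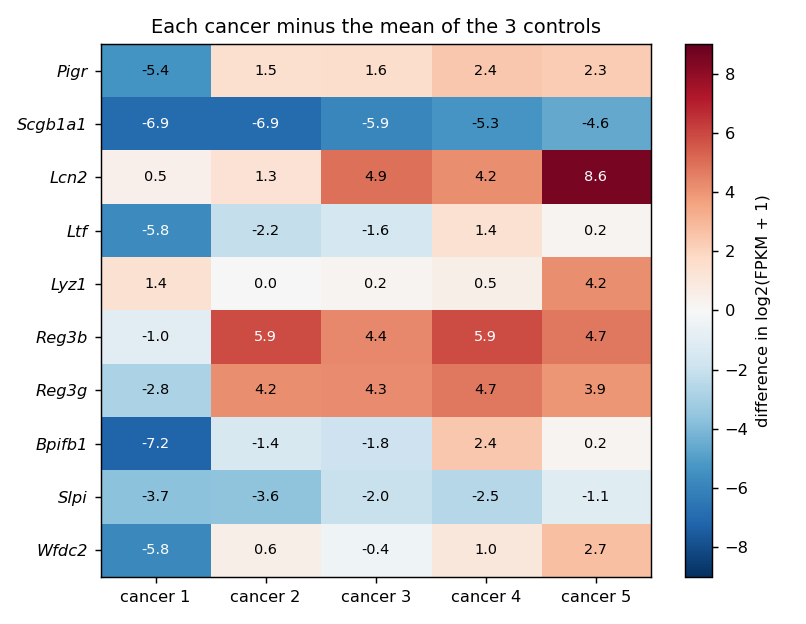
Difference in log2(FPKM + 1) between each cancer (columns) and the mean of the 3 controls, for each of the 10 genes (rows), with red for higher and blue for lower. Lcn2 is above the control mean in all 5 cancers, Scgb1a1 and Slpi are below it in all 5, and cancer 1 is below it for 8 of the 10 genes.

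Pigr encodes the polymeric immunoglobulin receptor, which carries dimeric IgA and pentameric IgM across epithelial cells and is shed with them as secretory component. It was at 0, 116, 128, 231 and 202 FPKM in cancers 1 to 5 and at 37, 51 and 38 in the controls (42.0 ± 7.81, SD, n = 3). Cancers 2 to 5 lay above all controls, and cancer 1 lay below them. The log2 fold change over all 5 cancers was 0.47 (SE 1.74) and 1.94 without cancer 1, and its sign turned with a pseudocount of 0.1 (-0.17) and without cancer 4 (-0.02). The gene with the most similar profile over the 8 samples was Dmbt1, a secreted scavenger receptor that binds bacteria and IgA, at 0, 319, 177, 398 and 436 FPKM in the cancers, against 56, 97 and 57 in control tissue. After each gene was centred on its own mean, Pigr and Dmbt1 differed by 0.41 (root mean square, log2 scale), and Pigr and Wfdc2, the next in likeness, by 0.88.

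The partner of Pigr in antibody transport is the J chain, which joins IgA monomers and is made by plasma cells. Its gene, Jchain (Igj in the table), was at 28, 7, 33, 28 and 3 FPKM in the cancers, against 7, 10 and 11 in control tissue (log2 fold change 0.61), and the groups did not differ in the limma test (adjusted p = 0.54). Cancer 5, with 202 FPKM of Pigr, had the lowest Jchain, and cancer 1, with Pigr listed at 0, had 28. Ccl28, a chemokine that draws IgA-secreting cells to mucosae, rose from control values of 6, 5 and 5 FPKM to 48, 9, 71, 28 and 39 (log2 fold change 2.40, SE 0.58, limma adjusted p = 0.018), a call lost when any of the 3 controls was left out. Derl3, which acts in protein quality control of secretory cells, fell by 1.59 on the log2 scale (limma adjusted p = 0.016), from 6, 7 and 12 FPKM to between 1 and 4. The transcription factor Prdm1, which drives plasma cell and keratinocyte maturation, fell by 0.98 (limma adjusted p = 0.012), from 3 or 4 FPKM to 1 or 2. The Derl3 call was lost without control 3, the Prdm1 call without control 2, and both with TPM, where they lay at -1.71 and -1.17 against the median of all genes. Of 10 genes tested in a list of IgA and plasma cell genes, 2 rose and 2 fell. That is 40%, where 34.5% of all genes tested were called, 16.2% as higher and 18.3% as lower. With TPM, 4 of the 10 rose and 0 fell, where 7176 of all genes rose and 528 fell. At an unadjusted p under 0.05 in limma these counts were also 4 and 0, with no share of all genes given for that threshold. On the FPKM scale the count called was 2 without control 1, and 1 without control 2 or control 3.

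Reg3b and Reg3g encode C-type lectins that bind the wall of bacteria, and Reg3g is known to keep Gram-positive bacteria away from the intestinal surface. Reg3b was at 0, 117, 40, 117 and 52 FPKM in cancers 1 to 5 and at 1 in each control. Reg3g was at 0, 126, 137, 190 and 108 in the cancers and at 9, 8 and 3 in the controls (6.67 ± 3.21, SD, n = 3). For both genes, cancers 2 to 5 lay far above every control and cancer 1 lay below every control. The log2 fold change was 3.97 (SE 1.5) for Reg3b and 2.86 (SE 1.70) for Reg3g, and without cancer 1 it was 5.21 and 4.28. Against the TPM shift of all genes the values were 3.91 and 2.77. A control value of 1 FPKM is the lowest step above 0 in these rounded values, so the size of the Reg3b fold is loosely set.

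Both genes lie in the Reg cluster of chromosome 6, Reg3b at chr6:78370885-78373466 and Reg3g at chr6:78466268-78468874 (mm10), 92.8 kb apart. The 6 Reg genes of the cluster span 98.0 kb. In their order along the chromosome after Reg3b, Reg3d was listed at 0 in all 8 samples, Reg3a at 1 in cancer 4 and 0 elsewhere, Reg2 at 0 in all 8, and Reg1 at 0, 83, 31, 223 and 33 in the cancers, against 2, 2 and 1 in control tissue. Expression was thus seen at both ends of the cluster and in Reg1, with 3 nearly silent genes between. Reg1, a pancreatic and gastric growth-associated lectin, had the profile most like Reg3b (root mean square difference 0.53 on the log2 scale) and most like Reg3g (0.81), ahead of the 0.82 between Reg3b and Reg3g themselves. Its log2 fold change was 3.47 with a limma adjusted p of 0.12, and it passed the test without cancer 1 (4.68). Reg4, a relative outside this cluster, was listed at 0 in all 8 samples.

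**Figure D3:**
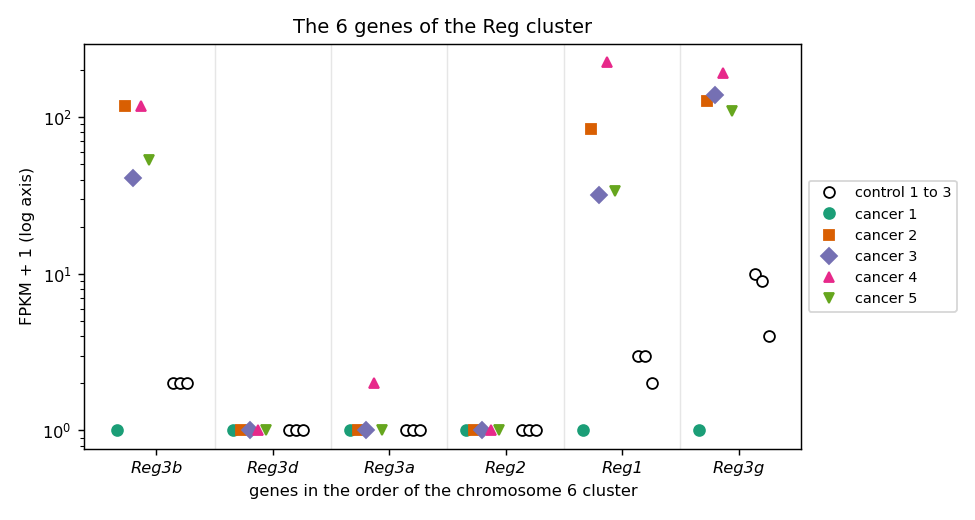
FPKM + 1 on a log axis for the 6 genes of the Reg cluster, in their order along chromosome 6, with filled symbols for the 5 cancers and open circles for the 3 controls. Reg3b, Reg1 and Reg3g share the pattern of 4 high cancers and cancer 1 at 0 FPKM (drawn at 1), while the 3 genes between Reg3b and Reg1 are at 0 or 1 FPKM in all samples.

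The upstream sequences of this pair are shown because the 2 genes moved together in these samples, beside those of Lcn2 and Slpi, which lay on opposite sides of the controls in cancers 2 to 5. The windows are the 250 bases before the RefSeq start site, taken from GRCm38.p6 and written 5′ to 3′ on the strand of the gene. Capitals mark matches, on either strand, to a STAT motif (TTCNNNGAA), a kappa B motif, a C/EBP motif (TTGCNNAA) or a FOX motif (TGTTTAC). Reg3b lies on the plus strand (chr6:78370635-78370884), Reg3g on the minus strand (chr6:78468875-78469124), Lcn2 on the minus strand (chr2:32387740-32387989) and Slpi on the minus strand (chr2:164356508-164356757).
Reg3b: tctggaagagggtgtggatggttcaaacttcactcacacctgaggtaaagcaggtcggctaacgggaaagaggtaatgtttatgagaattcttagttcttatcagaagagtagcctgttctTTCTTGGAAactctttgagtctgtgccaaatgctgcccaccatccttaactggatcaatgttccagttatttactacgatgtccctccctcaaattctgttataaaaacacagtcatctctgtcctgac
Reg3g: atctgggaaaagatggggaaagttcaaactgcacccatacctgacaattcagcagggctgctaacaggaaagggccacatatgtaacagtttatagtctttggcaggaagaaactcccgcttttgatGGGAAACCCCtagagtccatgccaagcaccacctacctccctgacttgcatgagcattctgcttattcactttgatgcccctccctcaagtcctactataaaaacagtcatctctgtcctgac
Lcn2: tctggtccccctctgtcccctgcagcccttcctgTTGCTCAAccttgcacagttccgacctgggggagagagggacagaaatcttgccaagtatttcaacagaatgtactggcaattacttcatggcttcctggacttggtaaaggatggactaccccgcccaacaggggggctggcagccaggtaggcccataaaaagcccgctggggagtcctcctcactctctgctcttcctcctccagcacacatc
Slpi: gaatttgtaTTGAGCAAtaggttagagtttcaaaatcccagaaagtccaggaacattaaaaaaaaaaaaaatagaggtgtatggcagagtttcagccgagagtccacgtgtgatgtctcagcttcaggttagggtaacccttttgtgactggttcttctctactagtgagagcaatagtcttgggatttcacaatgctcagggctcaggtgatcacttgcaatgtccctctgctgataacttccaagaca
The Reg3b and Reg3g windows were identical at 70.8% of their 250 bases in a global alignment. The 35 other pairs among the 9 members with a sequence had 54.8% to 61.6% by the same alignment, with a median of 58.0%. The window of Reg1, nearest in profile to both, was identical at 60.0% to Reg3b and 60.8% to Reg3g. The window of Reg3d, listed at 0 in all 8 samples, was identical at 63.6% to Reg3b. Reg3b held a STAT match from 129 to 121 bases before the start, where Reg3g held none, and Reg3g held a kappa B match from 123 to 114 bases before the start, where Reg3b held none. The Lcn2 match was to C/EBP, from 216 to 209 bases before the start, and that of Slpi was also to C/EBP, from 241 to 234.

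Over the 9 members, a C/EBP match was found in 4 (Lcn2, Ltf, Lyz1 and Slpi), a STAT match in 2 (Reg3b, and the second start site of Bpifb1), a kappa B match in 1 (Reg3g) and a FOX match in 0. Pigr and Wfdc2 held none of these motifs. Of 32851 windows of the same length in the table, 9.56% held the C/EBP motif, 7.02% the STAT motif, 3.9% the kappa B motif and 3.17% the FOX motif. The C/EBP matches fell in genes of opposite course, Lcn2 above and Slpi below the controls. A match is a run of letters and not a measured site. Scgb1a1 had no sequence in the table.

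Lyz1 encodes the lysozyme of Paneth cells and other gland cells, which cuts the peptidoglycan of the bacterial wall. It was at 26, 9, 11, 14 and 183 FPKM in cancers 1 to 5 and at 14, 11 and 5 in the controls (10 ± 4.58, SD, n = 3). Cancers 1 and 5 lay above the controls and the other 3 lay within their range. The log2 fold change was 1.26 (SE 0.94) and fell to 0.53 without cancer 5. Lyz2, the lysozyme of macrophages, was at 252, 89, 84, 27 and 63 FPKM in the cancers, against 37, 23 and 13 in control tissue (log2 fold change 1.79, SE 0.66, limma adjusted p = 0.068). It passed the test with TPM (1.95 against the median of all genes), with quantile normalization, with a replicate block and without cancer 4. The transcripts of Lyz1 and Lyz2 are nearly identical, so how reads were divided between them is uncertain. Of the Paneth cell markers, the defensin genes Defa24, Defa17 and Defa22 were listed at 0 in all 8 samples. Of the 10 macrophage markers, which include Lyz2, 5 were called higher in the cancers and 0 lower, where 16.2% of all genes tested were called higher. The 9 markers other than Lyz2, among which those 5 lie, summed to 179, 174, 318, 147 and 192 FPKM in cancers 1 to 5 and to 46, 50 and 37 in the controls. Cancer 1 had the highest Lyz2 but not the highest sum of the other 9. The part of macrophages in the Lyz1 and Lyz2 levels was not tested.

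Lcn2 and Ltf both keep iron from bacteria, but they took different courses. Lcn2, or lipocalin 2, binds the siderophores with which bacteria collect iron, and it was at 3, 6, 87, 51 and 1092 FPKM in cancers 1 to 5 and at 3, 1 and 2 in the controls (2 ± 1, SD, n = 3). Cancers 2 to 5 lay above every control and cancer 1 equalled the highest of them. The level in cancer 5 was far above the other 4, and the log2 fold change of 3.88 (SE 1.70) became 2.71 without cancer 5 and 4.74 without cancer 1. Against the TPM shift it was 4.02. Ltf, or lactoferrin, binds iron itself, and it was at 0, 11, 17, 139 and 62 FPKM in the cancers and at 82, 65 and 28 in the controls (58.3 ± 27.6, SD, n = 3). Cancers 1 to 3 lay below the controls, cancer 4 above them and cancer 5 among them, so that the groups overlapped at a log2 fold change of -1.59 (SE 1.46), or -0.54 without cancer 1 and -2.33 without cancer 4.

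The genes most like Lcn2 over the samples were also high in cancer 5. Hpx, the haem-binding protein hemopexin of liver, was at 2, 1, 5, 17 and 385 FPKM in the cancers, against 2, 1 and 3 in control tissue. Lrg1, an acute phase glycoprotein, was at 24, 74, 72, 51 and 809 and at 4, 2 and 3. Their profiles lay 1.27 and 1.32 from that of Lcn2 (root mean square, log2 scale), the loosest nearest likeness among the 10 genes. The nearest to Lyz1, which also peaked in cancer 5, were Nnmt (0.48) and Apoa5 (0.51), and Apoa5, a liver apolipoprotein, was at 14 FPKM in cancer 5 and at 0 or 1 in the other samples. The hepatocyte marker sum was also highest in cancer 5, at 616 FPKM. In cancers 1 to 4 it was at 56, 28, 66 and 7, where Lcn2 was at 3, 6, 87 and 51. The part of these markers in the levels of these genes, that of Lcn2 included, was not tested. The gene nearest to Ltf was Glod5 (0.75), at 0, 15, 8, 39 and 64 FPKM in the cancers, against 37, 49 and 36 in control tissue.

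Receptors of Lcn2 and Ltf, and other genes of iron, retinol and metal binding, are given next. Slc22a17, a cell surface receptor for lipocalin 2, rose from control values of 2, 3 and 5 FPKM to 15, 8, 11, 13 and 12 (log2 fold change 1.60, SE 0.27, limma adjusted p = 0.0050). Lrp1, an endocytic receptor that takes up lactoferrin, was lower by the same test, at 7 to 12 FPKM against 16 to 22 (limma adjusted p = 0.017, log2 fold change -0.85), and it lay 0.75 below the median of all genes with TPM. Its call was lost with TPM, with quantile normalization and without control 3. Hamp, whose product hepcidin lowers iron export from cells, rose from 22, 11 and 10 FPKM to 157, 39, 99, 107 and 989 (log2 fold change 3.34, SE 0.92, limma adjusted p = 0.028). Cancer 5 was again the highest, the log2 fold change without it was 2.65, and the Hamp call was lost without cancer 1, cancer 3 or any 1 control. Hepcidin is made mainly by the liver, and the hepatocyte marker sum was also highest in cancer 5, at 616 FPKM. In cancers 1 to 4 that sum was at 56, 28, 66 and 7, an order that Hamp did not follow. The part of these markers in the Hamp and Trf levels was not tested. Trf, the transferrin relative of Ltf that carries iron in serum and is also made by the liver, was at 28, 34, 17, 29 and 150 FPKM in the cancers, above the 9, 12 and 7 of control tissue (log2 fold change 1.92, limma adjusted p = 0.048), with a log2 fold change of 1.43 without cancer 5. The Trf call was lost without cancer 1, 2 or 4 or any 1 control. Rbp4, a lipocalin that carries retinol, rose from 3, 6 and 5 FPKM to 917, 374, 278, 12 and 108 (log2 fold change 4.93, SE 1.24, limma adjusted p = 0.020), with cancer 1 the highest. The Rbp4 call was lost without cancer 3 or any 1 control. S100a8, which binds zinc and manganese in neutrophils and squamous epithelium, was at 6, 6, 112, 549 and 223 FPKM in the cancers, against 62, 35 and 199 in control tissue (limma adjusted p = 0.86). The neutrophil genes Elane, Mpo and Camp were listed at 0 in all 8 samples, but other markers of that list were not. Retnlg was at 1, 1, 0, 1 and 10 FPKM in the cancers and at 0 in the controls. Ngp and Mmp8 were at 2 in cancer 5 and 0 elsewhere. Csf3r was at 1 in cancers 1, 3 and 5 and 0 elsewhere, while Cxcr2 was at 1 in each control and in cancers 1 and 5. Of the 10 markers, 7 were at 1 FPKM or more in cancer 5, 5 in cancer 1 and 3 in every other sample.

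Bpifb1, a lipid-binding protein of airway and gastric mucus, was at 0, 54, 41, 816 and 176 FPKM in cancers 1 to 5 and at 119, 153 and 180 in the controls (151 ± 30.6, SD, n = 3). Cancers 1 to 3 lay below the controls, cancer 5 lay within their range and cancer 4 far above them. Its log2 fold change of -1.56 (SE 1.89) became -0.15 without cancer 1 and -2.56 without cancer 4. The most similar gene was Cym, which encodes the gastric protease chymosin, at 0, 9, 14, 388 and 24 FPKM in the cancers, against 62, 55 and 98 in control tissue (root mean square difference 0.85), followed by Ltf (0.88). The relative Lbp, which presents bacterial lipopolysaccharide to its receptor, rose from 1 FPKM in each control to 56, 41, 51, 36 and 359 (log2 fold change 5.13, SE 0.71, limma adjusted p = 0.0028), again with cancer 5, the sample with the high hepatocyte markers, the highest. Lbp is also a liver product, and the part of these markers was not tested. Without cancer 5 its log2 fold change was 4.53, and the call held with each of the 8 samples left out in turn. Bpifa1, an airway relative of Bpifb1, was at 1 FPKM in control 1 and listed at 0 in the other 7 samples.

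Scgb1a1 encodes the secretoglobin known from club cells of the airway. It was at 0, 0, 1, 2 and 4 FPKM in cancers 1 to 5 and at 102, 121 and 133 in the controls (119 ± 15.6, SD, n = 3). Every cancer lay far below every control. The log2 fold change was -5.91 (SE 0.54), between -6.25 and -5.67 with each sample left out in turn, and -6.34 against the TPM shift. Since the cancers are at the lowest steps of the rounded values, the size of this fold depends on the pseudocount, and it was -7.56 with a pseudocount of 0.1. Of the 6 airway club cell markers, Scgb3a2 was listed at 0 in all 8 samples, but others were present in the controls. Scgb3a1 was at 48, 21 and 27 FPKM in the controls and at 0, 1, 2, 23 and 5 in cancers 1 to 5. Cyp2f2 was at 35, 40 and 15 in the controls and at 0, 0, 2, 22 and 5 in the cancers. Both were thus below the controls in 4 of 5 cancers and within their range in cancer 4. Muc5b of the same list went another way, at 1, 0, 4, 4 and 12 FPKM in the cancers, against 2, 1 and 1 in control tissue. Upk3a was at 1, 2, 0, 2 and 1 in the cancers and at 1, 0 and 0 in the controls. The part of club cell markers in the Scgb1a1 level was not tested. The alveolar markers Sftpc, Sftpa1 and Lamp3 were listed at 0 throughout, and the summed alveolar markers were at 4 to 7 FPKM in the controls and 16 to 24 in the cancers. The profiles most like that of Scgb1a1 belonged to Lce1m (0.62) and Lce1i (0.65), both late cornified envelope genes of squamous epithelium. Lce1m was at 0, 0, 4, 2 and 9 FPKM in the cancers, against 98, 136 and 76 in control tissue. The summed squamous markers moved the same way, at 0, 26, 426, 1930 and 687 FPKM in the cancers, against 2161 to 3584 in control tissue, and their part in the Scgb1a1 level was not tested. The squamous list was split in cancer 4, where Krt5 (574 FPKM), Krt14 (403), Krt6a (65) and Trp63 (21) lay above every control and Krt4 (96), Krt13 (494) and Sprr3 (274) below.

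Slpi and Wfdc2 are the members with whey acidic protein (four-disulfide core) domains, and they too parted. Slpi inhibits neutrophil elastase and related proteases, and it was at 12, 13, 40, 28 and 77 FPKM in cancers 1 to 5 (34.0 ± 26.7, SD, n = 5) and at 133, 195 and 180 in the controls (169 ± 32.3, SD, n = 3). Every cancer lay below every control, and the control mean was 4.98 times the cancer mean. The log2 fold change was -2.59 (SE 0.59), -2.46 against the TPM shift, and between -2.96 and -2.32 with each sample left out in turn. Wfdc2, a secreted four-disulfide core protein of uncertain inhibitor activity, was at 1, 163, 82, 226 and 710 FPKM in the cancers and at 153, 72 and 121 in the controls (115 ± 40.8, SD, n = 3). Cancers 2, 4 and 5 lay above the controls, cancer 3 within their range and cancer 1 far below, so that the log2 fold change of -0.39 (SE 1.70) turned to 0.96 without cancer 1 and to 0.0059 with quantile normalization. Against the TPM median of all genes it was -0.33. In cancer 5, Wfdc2 was at its highest and Slpi, though also at its highest among the cancers, remained below every control.

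Slpi and Wfdc2 lie on chromosome 2, at chr2:164354070-164356507 and chr2:164562716-164568506 (mm10), 206 kb apart. The 9 genes of the table from Slpi to Wfdc2 span 214 kb, and 3 of the 7 between them were listed at 0 in all 8 samples. The profiles most like Slpi were those of Hrnr (0.37), a cornified envelope gene, and Aox4 (0.39), an aldehyde oxidase of the skin, both at 0 to 2 FPKM in the cancers, against 9 to 17 in control tissue. The nearest to Wfdc2 was Pigr (0.88), followed by Dmbt1 (0.97). The protease Elane, a target of Slpi, was listed at 0 in all 8 samples. Grn, whose product progranulin is protected from elastase by Slpi, rose slightly, from 55, 53 and 63 FPKM to between 67 and 88 (log2 fold change 0.43, SE 0.13, limma adjusted p = 0.036), a call lost without cancer 1, 3 or 5 or any 1 control. Among 8 other four-disulfide core genes tested, 1 rose and 3 fell, where 34.5% of all genes tested were called, 16.2% as higher and 18.3% as lower. With TPM 2 rose and 3 fell, beside 7176 and 528 of all genes. Wfdc17 rose from 2, 1 and 1 FPKM to between 6 and 20 (log2 fold change 2.48, limma adjusted p = 0.0028), a call that held with each sample left out. Wfdc21 (1100001G20Rik in the table) fell by 3.87 on the log2 scale, from 47, 78 and 47 FPKM to 6, 0, 2, 1 and 20 (limma adjusted p = 0.016), and this call was lost without any 1 control.

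The marker lists show where the sums of other cell types moved beside the 10 genes. The gastric gland markers, at 158669 to 240843 FPKM in the controls, were at 694, 78734, 6019, 55618 and 16664 in cancers 1 to 5, and the summed general epithelial markers were at 842, 4773, 1367, 3010 and 2310 against 5572 to 7769. Krt8, Krt18 and Krt19 made up most of this epithelial sum in the controls, but in cancer 1 they were at 207, 139 and 13 FPKM. In the same list Epcam (314 to 592 FPKM against 159 to 183), Cldn4 (20 to 90 against 8 to 9) and Cldn7 (55 to 143 against 4 to 6) lay wholly above the controls. Of the cancers, 2 and 4 were highest for both sums, while cancers 4 and 5 had the highest sums of the 10 genes. The neutrophil markers, which rested almost wholly on S100a8 and S100a9, were at 16, 13, 186, 824 and 393 FPKM in the cancers, against 106 to 367 in control tissue. The airway club cell list was at 2, 3, 8, 51 and 23 against 43 to 87, and the pancreatic acinar list at 0 to 7 against 10 to 20. Paneth and goblet cell markers were at 309, 982, 2730, 463 and 197 against 69 to 157, most of it from Spink4. Lists for cell types overlap in part with those described next, sharing 22 genes, and their part in the levels of the 10 genes was not tested.

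**Figure D4:**
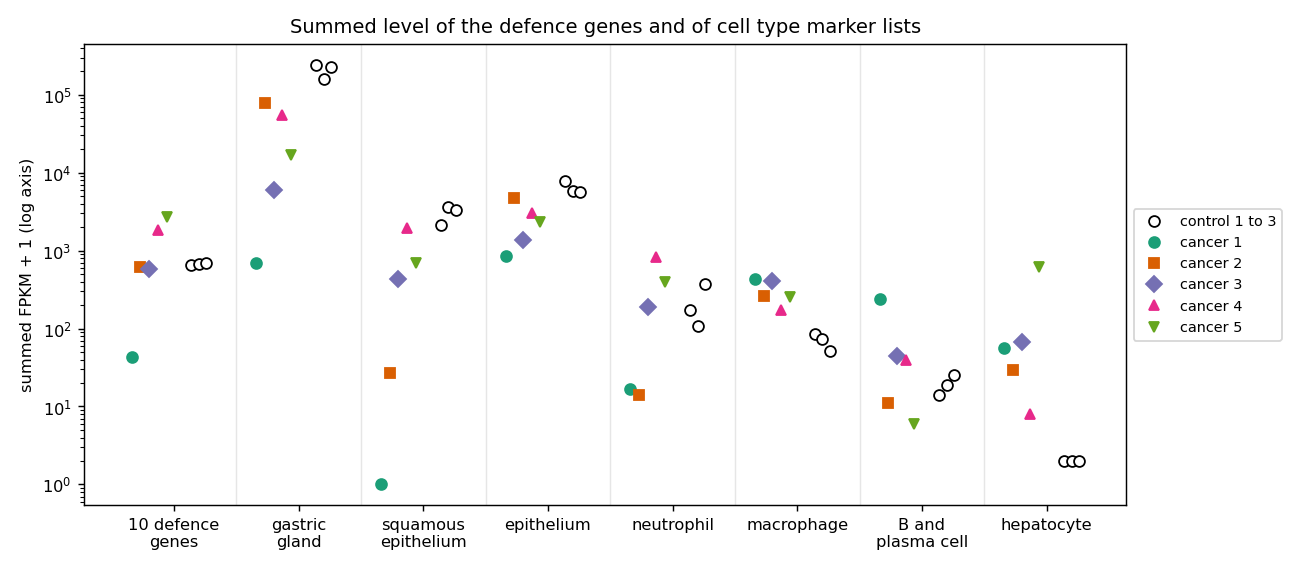
Summed FPKM + 1 on a log axis of the 10 defence genes and of 7 cell type marker lists in each sample, with filled symbols for the 5 cancers and open circles for the 3 controls. Cancer 1 is lowest for the defence genes, gastric gland, squamous and general epithelial lists and highest for the B and plasma cell list, and through Lyz2 for the macrophage list, and cancer 5 is highest for hepatocyte markers.

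Genes around the 10 members were compared between the groups with limma, in 7 lists that hold 236 genes together, 153 of them tested. Of these, 16 were higher and 28 lower in the cancers, or 28.8% called, against 34.5% of all genes tested. Among relatives from the families of the 10 members, 5 of 27 tested genes rose and 5 fell, and the middle fold change on the log2 scale was 0.80. With TPM 13 rose and 3 fell, where 50.0% of all genes were higher and 3.68% lower, and without control 1, 2 or 3 the count of relatives called was 4, 4 or 5. A further 40 of the 76 relatives in the table were under 1 FPKM in every sample. Among other secreted defence and barrier genes, 1 of 31 rose (Hamp) and 4 fell, with a median of -0.995. Duox2, an oxidase that makes hydrogen peroxide at the surface of mucosae, fell from 92, 27 and 12 FPKM to 0, 6, 3, 3 and 9 (log2 fold change -2.99, SE 0.85, limma adjusted p = 0.032), and its call was lost with TPM (-3.19 against the median of all genes), with a pseudocount of 0.1 and without cancer 3, cancer 4, control 1 or control 2. The peptidoglycan recognition gene Pglyrp3 was listed at 0 in all 5 cancers and at 1, 1 and 2 in the controls. The count of genes called in the secreted list was 0 without control 1 or control 2, 1 without control 3 or cancer 3, and 3 without cancer 2 or cancer 5. With TPM 2 of its genes rose and 1 fell, beside the same 50.0% and 3.68%.

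Signalling genes that are known to induce several of these proteins were counted in 2 lists. Of 21 tested genes of interleukin 17, 22 and 6 signalling, 0 rose and 3 fell, or 14.3%. Of all genes tested 34.5% were called, 16.2% as higher and 18.3% as lower. At an unadjusted p under 0.05 in limma 5 of the 21 were higher and 6 lower, with no share of all genes given for that threshold. Il17rc, a subunit of the interleukin 17 receptor, fell from 36, 37 and 44 FPKM to 10, 20, 16, 18 and 16 (log2 fold change -1.26, SE 0.22, limma adjusted p = 0.0055), a call lost with TPM, where it lay at -1.14 against the median of all genes. Traf6, an adaptor of interleukin 17 and Toll-like receptors, and the kinase Tyk2 had log2 fold changes of -0.88 and -0.83 (limma adjusted p = 0.019 and 0.013). The Traf6 call was lost with TPM and without any 1 control, and that of Tyk2 with TPM and without control 3. Against the TPM median of all genes they lay at -0.86 and -0.78. The other subunit Il17ra was at 4 to 8 FPKM in the cancers, against 4 to 6 in control tissue (limma adjusted p = 0.67), and Il22ra1, the receptor of interleukin 22, at 0 to 2 and 1 to 2 (limma adjusted p = 0.54). Stat3 was at 52, 39, 42, 37 and 76 FPKM in the cancers, against 35, 33 and 40 in control tissue (log2 fold change 0.39, limma adjusted p = 0.23), and Nfkbiz, a co-activator of Lcn2, was at 7, 8, 21, 20 and 31 and 13, 6 and 15 (log2 fold change 0.47, limma adjusted p = 0.51). Cancer 5, with the highest Lcn2, was also highest of the cancers for Stat3 and Nfkbiz. With TPM, 11 of the 21 genes were higher and 0 lower, beside 50.0% higher and 3.68% lower of all genes. The count of genes called was 5 without cancer 1 or cancer 4, 6 without cancer 5, and 2 without control 2 or control 3.

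Of 39 genes of Toll-like receptor, interleukin 1 and NF-kB signalling, 4 rose and 7 fell, or 28.2%. The share over all genes tested was 34.5%, with 16.2% higher and 18.3% lower. With TPM 18 rose and 0 fell, beside 50.0% higher and 3.68% lower of all genes. At an unadjusted p under 0.05 in limma these counts were 21 and 1, with no share of all genes given for that threshold. Il1r1, the interleukin 1 receptor, rose from 4, 5 and 5 FPKM to 29, 12, 28, 17 and 37 (log2 fold change 2.08, SE 0.35, limma adjusted p = 0.0050), a call that held with each sample left out. Cxcl1, a chemokine for neutrophils, and the cytokine Il1b had log2 fold changes of 3.28 and 2.32 (limma adjusted p = 0.038 and 0.040), with controls at 0 or 1 FPKM. Cancer 5 was far the highest for both, at 112 FPKM of Cxcl1 and 36 of Il1b, where the other 4 cancers were at 4 to 8 and 3 to 6. Without cancer 5 the log2 fold changes were 2.48 and 1.76. The calls were lost with quantile normalization and when any 1 control was left out, and also without cancer 2 or 4 for Cxcl1 and cancer 1 or 3 for Il1b. Tlr4, the receptor for lipopolysaccharide, fell from 28, 14 and 12 FPKM to between 3 and 7 (log2 fold change -1.66, SE 0.32, limma adjusted p = 0.0079), a call lost with TPM, where it lay at -1.63 against the median of all genes. The count of genes called in this list was 4 without control 1, 5 without control 3 and 7 without control 2 or cancer 3.

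Among transcription factors of secretory epithelium, 1 of 18 tested rose and 5 fell, or 33.3%, and the list had its median at -1.07 on the log2 scale. The share called over all genes tested was 34.5%, with 16.2% higher and 18.3% lower. With TPM 4 rose and 4 fell, beside 50.0% and 3.68% of all genes. Gata4, a factor of the glandular stomach, fell from 120, 109 and 111 FPKM to 20, 47, 22, 33 and 21 (log2 fold change -2.03, SE 0.29, limma adjusted p = 0.0029). Klf4, a factor of differentiated squamous and glandular cells, fell from 318, 209 and 252 to 15, 93, 28, 46 and 57 (log2 fold change -2.64, SE 0.53, limma adjusted p = 0.0097), and Foxa3 fell by 1.67 on the log2 scale (limma adjusted p = 0.0059). These 3 calls held with each sample left out. Creb3l1, a factor of secretory cells, rose from 34, 36 and 50 FPKM to 258, 82, 338, 105 and 94 (log2 fold change 1.88, SE 0.51, limma adjusted p = 0.026), a call lost without any 1 control. Spdef, which drives mucous and club cell secretion, was at 0, 23, 5, 21 and 11 FPKM in the cancers, against 23, 24 and 37 in control tissue (limma adjusted p = 0.19), and Elf3 at 46, 187, 48, 126 and 184 and 271, 181 and 268 (limma adjusted p = 0.11). Spdef, like Pigr, Reg3b and Reg3g, was listed at 0 in cancer 1.

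Receptors, partners and protease targets of the 10 proteins made the shortest list, in which 3 of 8 tested genes rose and 2 fell, or 62.5%, where 34.5% of all genes tested were called (16.2% higher and 18.3% lower). Extl3, a receptor described for Reg proteins, was at 7 or 8 FPKM in the cancers, against 9, 11 and 12 in control tissue (log2 fold change -0.40, SE 0.13, limma adjusted p = 0.045). It lay at -0.31 against the TPM median of all genes, and its call was lost with TPM, with quantile normalization, with both other filters and without control 2 or 3 or any cancer but cancer 2. With TPM 3 genes of the list rose and 0 fell, beside 7176 higher and 528 lower of all genes. At an unadjusted p under 0.05 in limma 4 rose and 0 fell, with no share of all genes given for that threshold. On the FPKM scale the count called was 1 without control 3 and 2 without cancer 1, cancer 5 or control 2. It was 3 without cancer 3, cancer 4 or control 1.

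**Figure D5:**
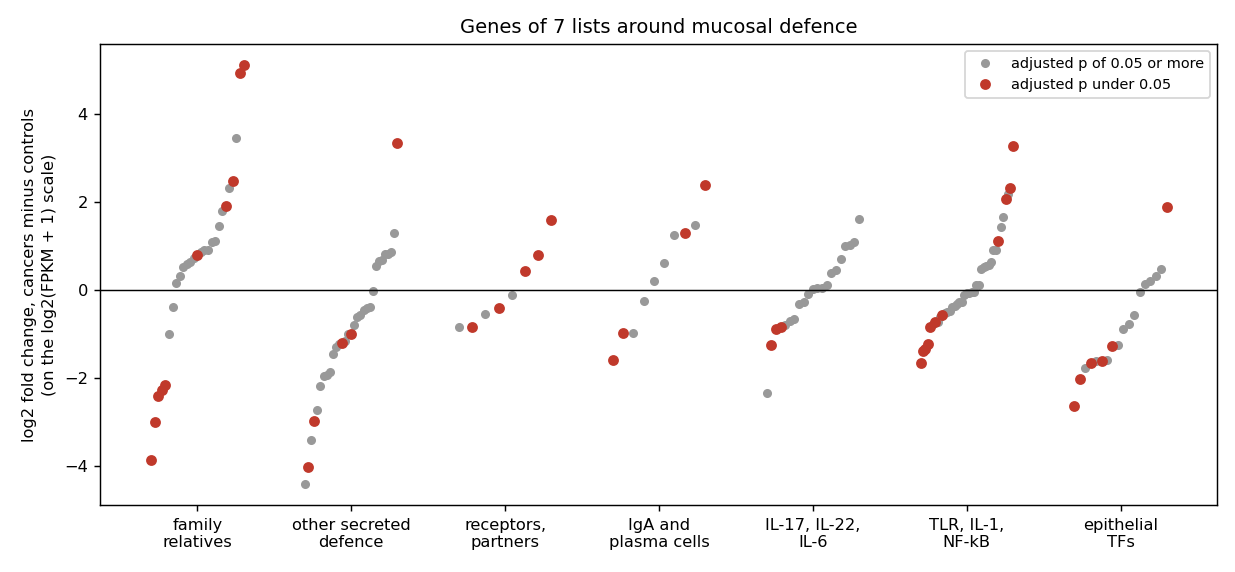
Log2 fold change (cancers minus controls, log2(FPKM + 1) scale) of every tested gene in the 7 lists, each dot a gene, with red for a limma adjusted p under 0.05. Between 14.3% (interleukin 17, 22 and 6) and 62.5% (receptors and partners) of a list was called, where 34.5% of all genes tested were, and the red dots lie on both sides of 0 in all lists but that of interleukin 17, 22 and 6.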

How the data were processed

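RNA-seq of 5 SCJ cancers and 3 control SCJ tissues of mice was used. Per the labels and the study's methods, polyA RNA was made into directional libraries, reads were trimmed with cutadapt 1.8, aligned with TopHat2 2.0.13 (mm10) and quantified per annotated gene with cuffquant, and FPKM were made with Cuffnorm 2.2.1. The deposited values are FPKM that the authors rounded to whole numbers, and they were used as a score, never as counts of reads (100% were whole). The normalization option of Cuffnorm is not given in the sources used here. Of the columns present, 8 were used and 0 belonged to no sample, and 0 pairs of samples were identical.

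Groups followed the sample titles. Genes with at least 1 FPKM in at least 3 samples entered 1 linear model per gene on the log2(FPKM + 1) scale (limma 3.58.1 under R 4.3.3, moderated with a mean-variance trend), and p-values were adjusted by Benjamini-Hochberg over all of them and a threshold of 0.05. The fit was tested on simulated data. Fold changes on this scale understate those of low genes. The 10 genes and the lists around them were chosen with earlier results of these data known. The table held 334 of the 336 genes listed, some through older symbols. Named beside the 10 genes are 18 genes set by name, up to 4 genes of each list with the largest change among those called without overlap, and the 2 genes nearest in profile to each of the 10. A gene that this rule names is not reported here. Trp53, Rb1, Trf, Pgc, Epcam, Cldn4, Cldn7, the keratins, Alb, Spink4, Mpo, Scgb3a1, Cyp2f2, the other Reg genes and the marker genes at 0 were named in addition, after their values were seen. The same holds for Retnlg, Ngp, Mmp8, Csf3r, Cxcr2, Muc5b and Upk3a. Upstream windows came from RefSeq (GRCm38.p6), where 9 of the 10 genes had an entry, and were aligned with Biopython 1.88. Protein sequences were not used here. Alternatives were a pseudocount of 0.1, other filters (any gene above 0, or a mean of at least 5 FPKM), TPM, quantile normalization, eBayes without a trend, a replicate block and leaving out each sample.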

Additional observations from a re-analysis of the deposited data

Results flagged for a closer look

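In 20 groups of 5 cancers (the 10 genes, each as FPKM and as log2(FPKM + 1)), the gap of the highest or lowest cancer to its neighbour was divided by the range, and 6 gaps were above Dixon's critical value of 0.71. That value passes about 1 in 20 groups by chance for normal values. These genes were selected on the same samples, the 2 scales are not independent and FPKM is skewed, so the number of gaps is a description and no test. Cancer 1 was the far lowest sample on the log2 scale for Pigr (0.874), Reg3b (0.778) and Reg3g (0.893), all listed at 0 there. Cancer 5 was the far highest in FPKM for Lcn2 (0.923, at 1092 FPKM) and Lyz1 (0.902, at 183 FPKM). Cancer 4 was the far highest in FPKM for Bpifb1 (0.784, at 816 FPKM). The cause of these gaps was not tested.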

How the results depend on the processing

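Depth is unknown, values are rounded and 3 controls set the spread, so low genes and counts of calls are loosely determined. Of all genes, 4948 were called, 7704 with TPM (7176 higher and 528 lower), 1534 with a replicate block and 2490 to 5252 with 1 sample left out (2490, 2643 and 2815 without controls 1, 2 and 3). The sample titles do not say that the replicate numbers pair the samples. Same-numbered samples had correlations of deviations of -0.02, -0.19 and -0.10. Samples of unlike number were not compared, so these values cannot settle whether the samples are paired. With the block 982 genes were higher and 552 lower, and 1327 were called both with and without it.

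Family relatives went from 10 calls to 6 at a mean of at least 5 FPKM, 16 with TPM and 4 to 12 with 1 sample left out. Other secreted defence genes went from 5 to 3 with a pseudocount of 0.1, at a mean of at least 5 and with TPM, 9 with quantile normalization and 0 to 7 with 1 left out. Receptors and partners went from 5 to 3 without the filter and with TPM, 2 at a mean of at least 5 and with quantile normalization, 0 with the block and 1 to 4 with 1 left out. IgA and plasma cell genes went from 4 to 1 at a mean of at least 5, 2 with the block and 1 to 5 with 1 left out. Interleukin 17, 22 and 6 genes went from 3 to 6 at a mean of at least 5, 11 with TPM, 0 with the block and 2 to 6 with 1 left out. Toll-like receptor, interleukin 1 and NF-kB genes went from 11 to 18 with TPM, 6 with quantile normalization, 1 with the block and 4 to 12 with 1 left out. Transcription factors went from 6 to 1 with the block and 4 to 8 with 1 left out.

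The median of the 10 genes (0.04) was -0.36 with a pseudocount of 0.1, -1.33 with the block and -0.57 to 1.09 with 1 sample left out, negative without cancer 2, 3, 4 or 5 or control 2. Reversed were Pigr (-0.17 with a pseudocount of 0.1, -0.78 with the block, -0.025 without cancer 4, and up to 1.94 without cancer 1), Wfdc2 (0.48 with TPM, 0.0059 with quantile normalization, 0.96 without cancer 1 and -1.16 without cancer 5), Dmbt1 (-0.11 with a pseudocount of 0.1, -0.84 with the block, but 2.2 and past the threshold without cancer 1), Il17ra (-0.0023 without control 2, 0.24 without control 1), and with TPM Extl3 (0.50), Il22ra1 (0.17), Lrp1 (0.058), Tyk2 (0.027) and S100a8 (0.54). These TPM values, that of Wfdc2 included, all lie below the median of all genes with TPM, 0.81 on the log2 scale, so against it the genes stayed lower. S100a8 also turned to 0.37 without cancer 1 or 2 and to 0.30 without control 3, and was -1.20 without cancer 4. For the single genes named beside the 10, 569 values stayed on the same side of 0 and of the threshold, 85 lost it, 12 gained it and 11 reversed. Other than for the TPM shift, the cause was not tested.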
